A study of Homo sapiens with 4 samples.

Results

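The nucleic acid sensors and their adaptors are 10 genes, *RIGI*, *IFIH1*, *DHX58*, *DDX60*, *TLR3*, *EIF2AK2*, *ADAR*, *CGAS*, *MAVS* and *STING1*, chosen by name from the 46660 gene identifiers of the deposited table. RNA was sequenced from a pair of established human glioblastoma lines, U87MG and U251MG, with 4 libraries in all. Each line gave 1 library of cells that carried the empty pGreen lentiviral vector (control; the sample titles call it shControl) and 1 from cells that carried shRNA against *FLI1* (shFLI1). *FLI1* encodes an ETS family transcription factor, and the comparison asks which RNAs changed when it was knocked down. All 4 groups had been infected with lentivirus and selected with puromycin, and each was a mixed stable population rather than a clone.

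RIG-I-like receptors recognise double-stranded RNA in the cytoplasm and signal through MAVS on mitochondria, whereas TLR3 recognises it in endosomes and cGAS recognises DNA and signals through STING. These routes end in the production of type I interferon, and interferon in turn induces many of the sensors through interferon-stimulated response elements in their promoters. *EIF2AK2* (PKR) and *ADAR* also bind double-stranded RNA, the first to halt translation and the second to edit adenosine to inosine.

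Summed counts per library ranged from 12229780 to 28891055, and levels are given as CPM, the counts scaled to library depth, after TMM scaling, a scaling that sets most genes to no change. The *FLI1* counts were 107 in U87MG control, 52 in U87MG shFLI1, 216 in U251MG control and 111 in U251MG shFLI1 cells. After scaling, *FLI1* RNA was at 25.02% of control in U87MG and 30.6% in U251MG. The glioblastoma markers *GFAP*, *NES*, *VIM*, *SOX2* and *CD44* were present in all 4 libraries, whereas *S100B* did not exceed 0.367 CPM. Of the blood and microglia markers, *AIF1* was at 0 in all 4 libraries and *PTPRC* did not exceed 0.167 CPM. The summed level of that list of 3 was 4.11 CPM in control and 0.54 in shFLI1 cells of U87MG, and 9.20 and 0.635 CPM in U251MG. *CD68* made up all of it in U87MG, and 9.14 and 0.4675 CPM of it in U251MG control and shFLI1 cells. The part of this difference in the results below was not tested. In bulk RNA, fewer cells that express a gene and less RNA per cell cannot be told apart.

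The promoters were searched for 3 short motifs. RefSeq windows on GRCh38.p14, each from 250 bases before the start site to 50 after it, were at hand for 7 of the 10 genes (9 windows, 3 of them for *ADAR*), and not for *DHX58*, *CGAS* and *STING1*. The core of the interferon-stimulated response element, searched as GAAANNGAAA on both strands, occurred in 3.57% of 35116 promoters of this length and in those of 4 of the 7 genes, *IFIH1*, *DDX60*, *TLR3* and *EIF2AK2*. The stretches below are shown because they hold those matches in genes called lower in at least 1 cell line. They are written along the strand of the gene with the matched bases in capitals. Where the match is on the opposite strand, the capitals are its reverse complement. *IFIH1* carried a match at positions -21 to -12, counted with the start site as 0, and an overlapping pair on the opposite strand, of which the one at -153 to -144 is shown. *DDX60* carried 2 matches on its own strand. The matches of *TLR3* (-4 to 5) and *EIF2AK2* (-6 to 3) lay across the start site.
IFIH1, chr2:162318671-162318730, minus strand: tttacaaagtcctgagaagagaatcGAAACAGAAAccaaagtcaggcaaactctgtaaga
IFIH1, chr2:162318803-162318862, minus strand: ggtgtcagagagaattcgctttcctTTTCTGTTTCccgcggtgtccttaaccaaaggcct
DDX60, chr4:168318806-168318865, minus strand: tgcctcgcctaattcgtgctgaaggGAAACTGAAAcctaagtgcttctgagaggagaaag
DDX60, chr4:168318771-168318830, minus strand: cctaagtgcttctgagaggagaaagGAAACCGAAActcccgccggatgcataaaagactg
TLR3, chr4:186069127-186069186, plus strand: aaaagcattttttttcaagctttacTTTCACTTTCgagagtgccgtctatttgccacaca
EIF2AK2, chr2:37156952-37157011, minus strand: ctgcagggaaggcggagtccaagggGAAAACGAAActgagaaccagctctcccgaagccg

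The core of the gamma-activated site, TTCNNNGAA, which reads the same on both strands, occurred in 7.66% of all promoters and in those of *TLR3* and *DDX60*. The spelling CNGGAAGT, labelled the ETS core here, is a longer form of the kind of sequence that FLI1 and its relatives bind. Shorter spellings such as GGAA, which some of the stretches above hold, were not searched. CNGGAAGT occurred in 9.37% of all promoters and in 1 of the 7, that of *MAVS*, at -200 to -193. That stretch is shown as the only match to this spelling in the 7 genes. Whether any match has a part in a change of RNA was not tested.
MAVS, chr20:3846609-3846666, plus strand: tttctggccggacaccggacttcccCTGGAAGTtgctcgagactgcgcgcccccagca

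The windows of *RIGI* and *ADAR* held none of these 3 spellings. The start site of the MANE Select transcript of *ADAR* in GENCODE, which encodes the protein of 1226 residues (p150), lay in none of the 3 *ADAR* windows. A match is a run of letters and not a measured binding site, and its absence says only that those letters are not in the window.

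**Figure D1:**
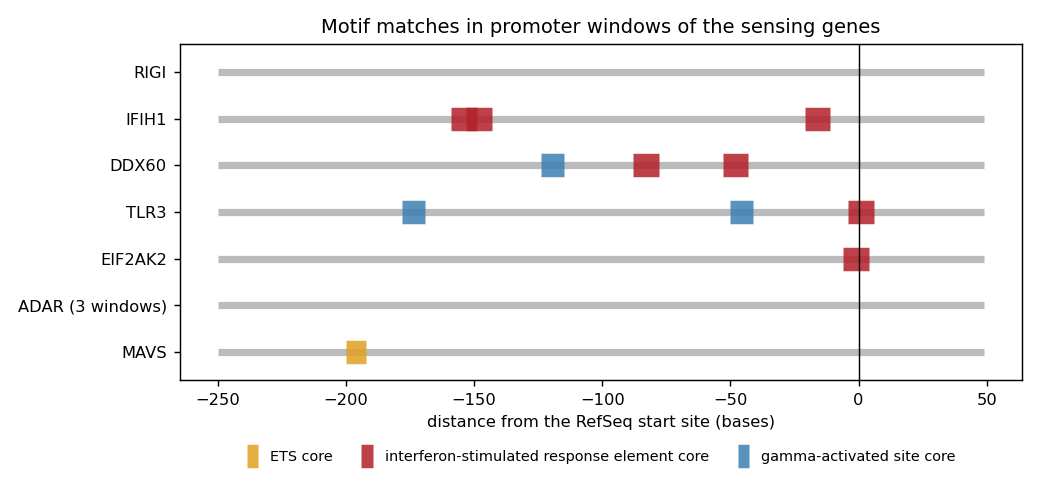
Motif matches in the RefSeq promoter windows of 7 sensing genes, drawn as coloured blocks at their distance in bases from the start site (vertical line). Interferon-stimulated response element cores (red) occurred in the windows of *IFIH1*, *DDX60*, *TLR3* and *EIF2AK2*, and gamma-activated site cores (blue) in those of *DDX60* and *TLR3*. The ETS spelling CNGGAAGT (yellow, drawn as the ETS core) occurred in that of *MAVS*, and shorter ETS spellings were not searched.

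A gene was called within a cell line when its libraries differed by more than 2-fold and an exact binomial test on their reads fell below 0.05. Such a call compares a pair of libraries, has no replicate check, and its intervals cover counting error only, so no p-value is given. Of the 10 genes, 9 had at least 10 counts in 1 library and were tested. In U87MG cells 4 of the 9 (*RIGI*, *IFIH1*, *TLR3* and *DDX60*) were lower in shFLI1 cells and 0 were higher, where 4.33% of all genes tested were called lower and 7.48% higher. In U251MG cells 7 of the 9 were lower, all but *MAVS* and *STING1*, and 0 were higher, where 4.06% of all genes were called lower and 4.44% higher. The 4 genes of U87MG were called lower in both cell lines, against 1.45% of all genes (0.842% higher in both). The median log2 fold change of the 9 was -0.94 in U87MG and -2.12 in U251MG, beside 0.06 and 0.04 over all genes tested.

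**Figure D2:**
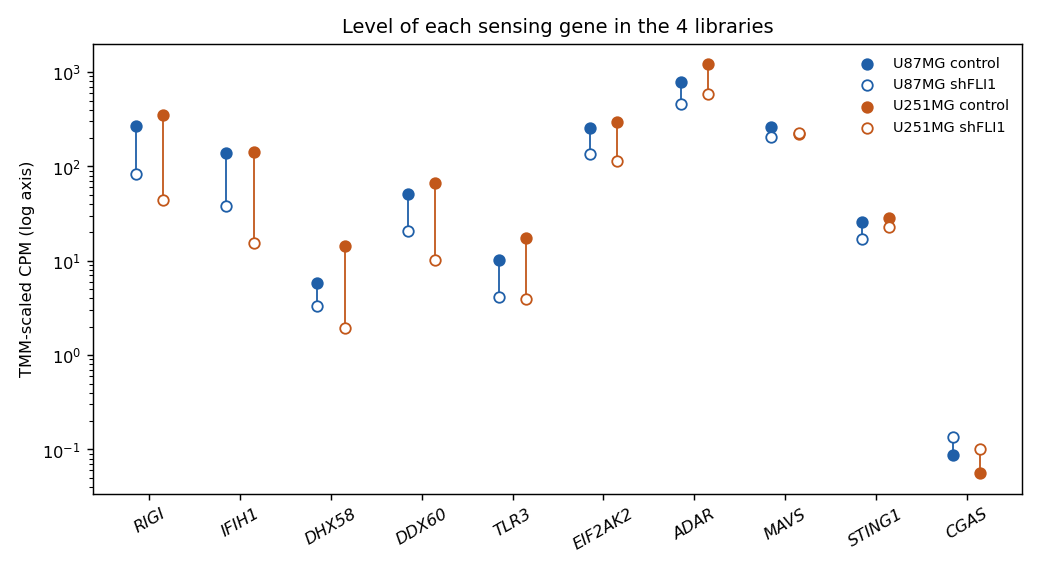
TMM-scaled CPM (log axis) of the 10 sensing genes in the 4 libraries, 1 point per library, with control as filled and shFLI1 as open circles joined by a line. From *RIGI* to *ADAR* the open circle lay below the filled one in both cell lines, the circles of *MAVS* in U251MG nearly coincided, and *CGAS* rested on at most 3 counts per library.

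Both cell lines entered 1 further test, the quasi-likelihood test of edgeR on all 4 libraries with a term for the line, so that U87MG and U251MG stand as replicates of the knockdown and 1 residual degree of freedom remains. It found 6 of the 9 genes lower in shFLI1 cells and 0 higher at an adjusted p below 0.05, where 2.14% of 16649 genes passed lower and 0.919% higher. The median shared log2 fold change was -1.76 for the 9 genes and 0.01 for all genes tested. The 6 genes were *RIGI*, *IFIH1*, *DDX60*, *TLR3*, *EIF2AK2* and *ADAR*. Without the cell line term 0 of the 9 passed, although 7 had an unadjusted p below 0.05. Of all genes tested in that fit, 0 passed and 725 had an unadjusted p below 0.05. With robust dispersions, an alternative chosen after seeing the data, 3 passed (*TLR3*, *EIF2AK2* and *ADAR*). Of all genes, 466 then passed in either direction, beside 509 in the main fit.

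Of the sensors, *RIGI* and *IFIH1* fell furthest in both cell lines. *RIGI* (Entrez gene 23586, chr9:32455302-32526196 on GRCh38.p14) encodes RIG-I, the helicase that recognises short RNA with a 5′ triphosphate. Its level was 269.6 CPM in U87MG control, 83.7 in U87MG shFLI1, 353 in U251MG control and 44.2 in U251MG shFLI1 cells. Both shFLI1 libraries were below both controls, and the lowest of the 4 was U251MG shFLI1. *RIGI* retained 31.1% of its control level in U87MG (log2 fold change -1.69, 95% counting interval -1.77 to -1.60) and 12.5% in U251MG (-2.99, interval -3.08 to -2.91). The shared log2 fold change was -2.36 (adjusted p = 0.003468, edgeR quasi-likelihood test), and with robust dispersions the adjusted p of *RIGI* in edgeR was 0.08988. Nearly all of its estimated counts, from 94.4% to 97.4% per library, were assigned to the RNA NM_014314.

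*IFIH1* (Entrez gene 64135, chr2:162267074-162318684), which encodes MDA5, the receptor for long double-stranded RNA, had the largest fall of the set in each cell line. It was measured at 138.5 CPM in U87MG control, 38.2 in U87MG shFLI1, 142 in U251MG control and 15.6 in U251MG shFLI1 cells. The controls were close to each other, and the shFLI1 libraries lay below both of them. *IFIH1* was at 27.6% of control in U87MG (log2 fold change -1.86, interval -1.98 to -1.74) and at 10.95% in U251MG (-3.18, interval -3.34 to -3.05). Over both lines the log2 fold change was -2.53 (adjusted p = 0.002408, edgeR quasi-likelihood test; 0.09884 with robust dispersions). Its promoter matches are printed above, and 95.6% to 98.3% of its counts belonged to NM_022168.

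*DHX58* (Entrez gene 79132, chr17:42101411-42112714) encodes LGP2, a RIG-I-like receptor without the signalling domains that modulates the other 2. This gene was much less abundant, with 67, 74, 254 and 58 counts in U87MG control, U87MG shFLI1, U251MG control and U251MG shFLI1 cells. Scaled to depth, these were 5.85, 3.33, 14.25 and 1.94 CPM, so that the U251MG control was the highest of the 4 and U251MG shFLI1 the lowest. In U87MG *DHX58* stood at 56.9% of control (log2 fold change -0.80, interval -1.31 to -0.32), short of 2-fold, and in U251MG at 13.6% (-2.82, interval -3.32 to -2.46). Its shared log2 fold change of -1.90 did not pass (adjusted p = 0.06238, edgeR quasi-likelihood test), but it passed in DESeq2 (adjusted p = 0.02616).

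*DDX60* (Entrez gene 55601, chr4:168216294-168325979), an interferon-induced helicase described as a cofactor of the RIG-I-like receptors, followed the same order of libraries as *RIGI*. Its level was 51.35 CPM in U87MG control, 20.6 in U87MG shFLI1, 66.7 in U251MG control and 10.2 in U251MG shFLI1 cells. It was at 40.2% of control in U87MG (log2 fold change -1.31, interval -1.49 to -1.14) and 15.3% in U251MG (-2.69, interval -2.89 to -2.52). The shared log2 fold change was -2.02 (adjusted p = 0.008395, edgeR quasi-likelihood test; 0.124 with robust dispersions). The neighbouring paralogue *DDX60L* is a separate row of the table, and how reads common to both were divided is not given in the sources used here.

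*TLR3* (Entrez gene 7098, chr4:186069156-186088073), the endosomal receptor for double-stranded RNA, was a low-abundance gene in these cells. It had 116, 91, 308 and 117 counts in U87MG control, U87MG shFLI1, U251MG control and U251MG shFLI1 cells, or 10.1, 4.09, 17.3 and 3.91 CPM. The controls differed from each other, while the shFLI1 libraries reached nearly the same level. *TLR3* was at 40.4% of control in U87MG (log2 fold change -1.29, interval -1.72 to -0.90) and 22.6% in U251MG (-2.12, interval -2.46 to -1.83). Its shared log2 fold change was -1.76 (adjusted p = 0.01094, edgeR quasi-likelihood test).

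*EIF2AK2* (Entrez gene 5610, chr2:37099210-37156980), the kinase PKR that phosphorylates eIF2α on binding double-stranded RNA, changed less than *RIGI* and *IFIH1*. The 4 libraries gave 258.5 CPM in U87MG control, 135 in U87MG shFLI1, 295 in U251MG control and 115 in U251MG shFLI1 cells. In U87MG it was at 52.3% of control (log2 fold change -0.94, interval -1.01 to -0.86), just short of the 2-fold limit, and in U251MG at 39.0% (-1.36, interval -1.42 to -1.30). The shared log2 fold change was -1.16 (adjusted p = 0.00806, edgeR quasi-likelihood test).

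*ADAR* (Entrez gene 103, chr1:154582057-154627997) encodes the editing enzyme ADAR1, whose p150 form is induced by interferon and whose shorter p110 form is made constitutively. The gene as a whole was the most abundant of the set, with 791 CPM in U87MG control, 459 in U87MG shFLI1, 1207 in U251MG control and 582 in U251MG shFLI1 cells. It was at 58.0% of control in U87MG (log2 fold change -0.79, interval -0.83 to -0.74) and at 48.2% in U251MG (-1.05, interval -1.08 to -1.02). Its shared log2 fold change was -0.93 (adjusted p = 0.03339, edgeR quasi-likelihood test). When libraries were scaled to total counts instead, *ADAR* missed both limits, with a log2 fold change of -0.98 in U251MG and an adjusted p of 0.05394 in edgeR.

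The RNAs of *ADAR* did not move alike. NM_001111, which encodes p150, had 433 CPM of estimated counts in U87MG control, 209 in U87MG shFLI1, 594 in U251MG control and 224 in U251MG shFLI1 cells. Its log2 fold change was -1.05 in U87MG (interval -1.11 to -0.99) and -1.40 in U251MG (interval -1.45 to -1.36). NM_001025107, which encodes p110, had 123, 126, 193.5 and 207 CPM in the same order. The log2 fold change of this RNA was 0.04 in U87MG (interval -0.05 to 0.14) and 0.10 in U251MG (interval 0.04 to 0.16). The form that each of the other *ADAR* RNAs encodes was not assigned here, so the values are those of single RNAs and not of all p150 or p110 RNA.

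The composition of *ADAR* RNA also differed between the arms. NM_001111 made up 54.7% of the counts of the gene in U87MG control and 45.6% in U87MG shFLI1 cells, and 49.2% and 38.5% in the U251MG pair. NM_001025107 made up 15.5% and 27.5% in the U87MG pair, and 16.0% and 35.6% in the U251MG pair. NM_001365047, the other RNA with over 10% of the gene in 1 library, had log2 fold changes of -1.19 and -1.62. Counts were divided between 21 overlapping RNAs of this gene by the counting tool, and the error of that division is not known, since the interval of each RNA covers counting alone.

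**Figure D3:**
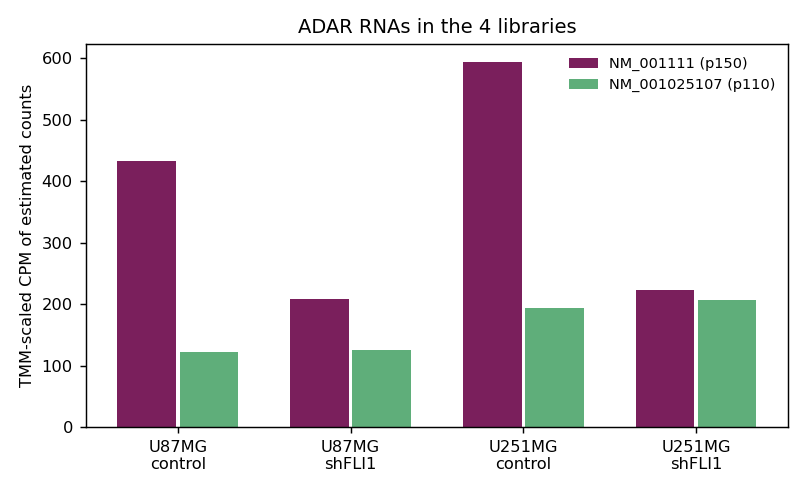
TMM-scaled CPM of the estimated counts of NM_001111 (p150, purple) and NM_001025107 (p110, green) of *ADAR* in the 4 libraries, 1 bar per RNA and library. The purple bar was lower in shFLI1 than in control cells of both cell lines (433 and 209 in U87MG, 594 and 224 in U251MG), whereas the green bars were 123 and 126 in U87MG and 193.5 and 207 in U251MG.

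The adaptors moved least. *MAVS* (Entrez gene 57506, chr20:3846834-3876118), the mitochondrial adaptor of RIG-I and MDA5, had 263 CPM in U87MG control, 206 in U87MG shFLI1, 219 in U251MG control and 224.5 in U251MG shFLI1 cells. It was at 78.3% of control in U87MG (log2 fold change -0.35, interval -0.42 to -0.29) and at 102% in U251MG (0.03, interval -0.02 to 0.09). The shared log2 fold change of *MAVS* was -0.17 (adjusted p = 0.6611, edgeR quasi-likelihood test).

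*STING1* (Entrez gene 340061, chr5:139475533-139482758), the adaptor downstream of cGAS, had 25.6 CPM in U87MG control, 16.9 in U87MG shFLI1, 28.7 in U251MG control and 23.0 in U251MG shFLI1 cells. Both shFLI1 libraries were below both controls, at 65.9% of control in U87MG (log2 fold change -0.60, interval -0.83 to -0.38) and 80.2% in U251MG (-0.32, interval -0.48 to -0.15). The shared log2 fold change was -0.47 (adjusted p = 0.1944, edgeR quasi-likelihood test). Of the 12 RNA rows of *STING1*, 3 are second copies of another row with the same values. With them its estimated counts summed to 293, 374.99, 511.99 and 689.99 in the same order of libraries, at or near whole numbers. Without them the sums were 153.71, 202.58, 265.33 and 359.66, so leaving the copies out appears to drop reads that were divided between equal rows. The levels above keep the copies. Without them the levels would be 13.4, 9.11, 14.9 and 12.0 CPM.

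*CGAS* (Entrez gene 115004, chr6:73423711-73452297), the cytoplasmic DNA sensor upstream of *STING1*, was barely detected. Its counts were 1 in U87MG control, 3 in U87MG shFLI1, 1 in U251MG control and 3 in U251MG shFLI1 cells, all at or under the floor of 3 counts. No fold is given, and no difference was detectable at this depth.

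**Figure D4:**
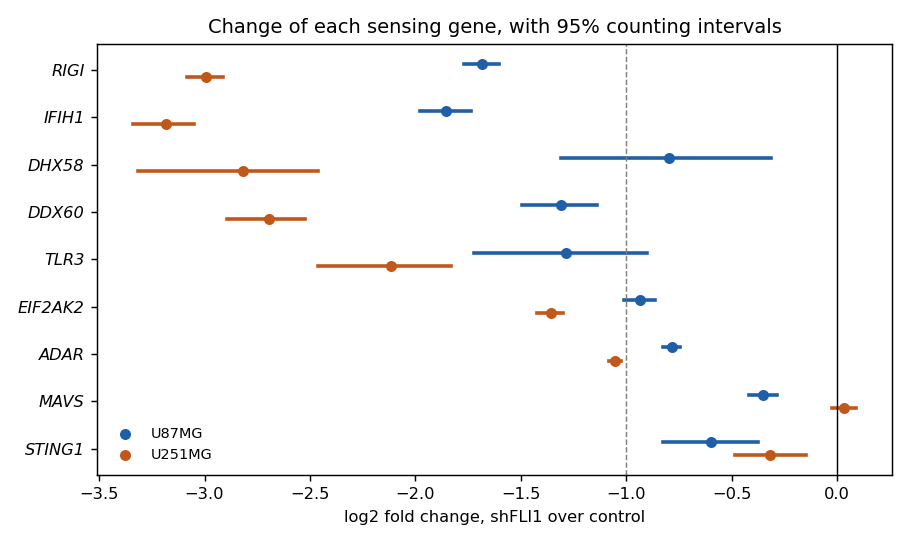
Log2 fold change of shFLI1 over control for the 9 genes tested in U87MG (blue) and U251MG (orange), with 95% counting intervals as bars and the 2-fold limit as a dashed line. From *RIGI* to *ADAR* the U251MG point lay to the left of the U87MG point, while for *MAVS* and *STING1* it lay to the right.

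The knockdown libraries also differed between the cell lines. The log2 fold change in U251MG minus that in U87MG was below 0 for 7 genes and above 0 for *MAVS* and *STING1*, and its counting interval excluded 0 for all 9. It was -2.02 for *DHX58* (interval -2.65 to -1.39), -1.38 for *DDX60* (interval -1.64 to -1.13), -1.33 for *IFIH1* (interval -1.51 to -1.14) and -1.31 for *RIGI* (interval -1.43 to -1.19). For *TLR3* it was -0.83, for *EIF2AK2* -0.42 and for *ADAR* -0.27. For *MAVS* it was 0.39, and for *STING1* 0.28 with an interval of 0.0071 to 0.558, which barely excluded 0. With scaling to total counts the interval excluded 0 for 8 of the 9 genes, 7 of them below 0 and 1 above. With 1 library per arm this difference could not be tested over replicates. For *FLI1* itself the log2 fold change was -1.95 in U87MG and -1.68 in U251MG.

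The control cells did not start from the same level. U251MG control exceeded U87MG control 2.44-fold for *DHX58*, 1.71-fold for *TLR3*, 1.53-fold for *ADAR*, 1.31-fold for *RIGI*, 1.299-fold for *DDX60* and 1.14-fold for *EIF2AK2*. *MAVS* was lower in U251MG control, at 0.834 of the U87MG level, and the intervals of *IFIH1* and *STING1* included no difference. In shFLI1 cells the order was turned for *RIGI*, *DHX58*, *DDX60* and *EIF2AK2*, which were lower in U251MG than in U87MG with log2 ratios of -0.92, -0.78, -1.01 and -0.23. *IFIH1*, which had no such order in the controls, was lower in U251MG as well (-1.30). *ADAR*, *STING1* and *MAVS* were higher in U251MG shFLI1 cells (0.34, 0.45 and 0.13, respectively), and *TLR3* did not differ beyond counting error (-0.07, interval -0.47 to 0.34).

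Levels of different genes can be compared only per length, for which the deposited FPKM (fragment counts divided by transcript length and library depth) was summed per gene. *ADAR* ranked highest in all 4 libraries, with 182.7 FPKM in U87MG control, 131 in U87MG shFLI1, 271 in U251MG control and 139.5 in U251MG shFLI1 cells. *RIGI* ranked number 2 in both controls, at 60.3 and 82.9 FPKM, number 3 in U87MG shFLI1 at 22.7 and number 5 in U251MG shFLI1 at 11.2. *MAVS* ranked number 5 in both controls, at 21.6 and 18.85 FPKM, and number 2 in U251MG shFLI1 cells, at 20.3. In U251MG the order of *RIGI* and its adaptor was therefore turned, with *RIGI* above *MAVS* in control and below it in shFLI1 cells. *IFIH1* and *EIF2AK2* were neighbours in the controls, at 41.3 and 39.8 FPKM in U87MG and 50.04 and 50.5 in U251MG, and without replicates the order of such close values is not established. *DHX58*, *TLR3* and *CGAS* took the last 3 ranks in every library. Leaving out the second copies of *STING1* rows, which appears to drop part of its reads, turned the order of *STING1* and *DDX60* in the controls. *STING1* had 14.05 and 16.1 FPKM in U87MG and U251MG control with them and 7.84 and 8.73 without them, and *DDX60* had 8.51 and 12.25. In U251MG shFLI1 cells *STING1* was above *RIGI* with the copies (13.8 FPKM) and below it without them (7.67 FPKM), which made *RIGI* number 4.

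The other genes of these pathways were described by lists of 10 to 20 genes each. The counts of each list stand beside the shares of all genes tested, of which 4.33% were lower and 7.48% higher in U87MG, 4.06% lower and 4.44% higher in U251MG, and 2.14% lower and 0.919% higher in the shared test. In lists this small, 0 or 1 called gene is near those shares and is not a result about the list. Of the RIG-I-like receptor cofactors and regulators, 17 were tested, of which 2 were lower in U87MG and 3 in U251MG, 0 were higher in either, and 3 passed the shared test, with medians of -0.11 in U87MG and -0.13 in U251MG. The gene lower in both was *DDX60L*, the paralogue of *DDX60*, at 39.7 and 13.6 CPM in the U87MG pair and 73.5 and 11.8 CPM in the U251MG pair (shared adjusted p = 0.003086, edgeR). Chosen after their values were seen, *TRIM25*, the ubiquitin ligase of RIG-I, had log2 fold changes of -0.68 and -1.09, and *ZNFX1*, a helicase that binds viral RNA, -0.72 and -1.86.

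Among the 16 kinases and adaptors tested downstream of *MAVS*, *TICAM1* and *STING1*, 0 were lower and 0 were higher in either cell line or in the shared test, a count near the shares of all genes (4.33% lower in U87MG, 4.06% in U251MG and 2.14% in the shared test). The medians were -0.03 in U87MG and -0.04 in U251MG. The most counted of the 16, *TAX1BP1*, had log2 fold changes of 0.24 and 0.32. *TBK1*, the kinase that phosphorylates IRF3, was named after its values were seen, and had 19.65 CPM in U87MG control, 23.4 in U87MG shFLI1, 29.6 in U251MG control and 26.65 in U251MG shFLI1 cells.

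Of 10 transcription factors tested, 2 were lower in each cell line, 0 were higher, and 3 passed the shared test (medians -0.14 and -0.49), beside 4.33%, 4.06% and 2.14% of all genes lower. *RELB*, of the non-canonical NF-κB pathway, was lower in both, at 31.1 and 9.80 CPM in U87MG and 16.9 and 7.08 CPM in U251MG (shared adjusted p = 0.005772, edgeR). *IRF3*, which the sensing routes activate, had log2 fold changes of -0.34 and -0.53, and *IRF1*, which interferon induces, -0.88 and -1.80, both named after their values were seen. *IRF7*, also named after its values were seen, had at most 1 count per library.

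Among the endosomal Toll-like receptors and adaptors, 8 genes were tested, of which 2 were lower in U87MG, 1 in U251MG and 1 in the shared test, with 0 higher (medians -0.17 and -0.09), beside 4.33%, 4.06% and 2.14% of all genes lower. That gene was *MYD88*, the adaptor of Toll-like receptors other than TLR3, with 89.3 and 28.2 CPM in the U87MG pair and 89.8 and 36.7 CPM in the U251MG pair (shared adjusted p = 0.002029, edgeR). *TICAM1*, the adaptor that TLR3 uses, was named after its values were seen, and had log2 fold changes of -0.37 and -0.58.

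Of 18 other DNA sensors and nucleic acid clearance genes, 2 were lower in U87MG, 4 in U251MG and 4 in the shared test, with 0 higher (medians -0.24 and -0.21), beside 4.33%, 4.06% and 2.14% of all genes lower. *TREX1*, a DNA exonuclease, had log2 fold changes of -1.01 and -1.04 (shared adjusted p = 0.04841, edgeR). *SAMHD1*, which hydrolyses deoxynucleotides, fell from 229 to 95 CPM in U87MG and from 428 to 113 CPM in U251MG (shared adjusted p = 0.003189, edgeR). *IFI16*, a DNA sensor named after its values were seen, had log2 fold changes of -0.96 and -1.37.

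The list of eIF2α kinases, their targets and other RNA editors set *EIF2AK2* and *ADAR* beside their relatives. Of 9 genes tested, 0 were lower in U87MG, 1 in U251MG and 1 in the shared test, with 0 higher (medians -0.04 and -0.13), a count near the 4.33%, 4.06% and 2.14% of all genes lower. *EIF2AK1*, the heme-regulated kinase of the same family as PKR and the most counted gene of the list, had log2 fold changes of -0.16 and 0.03. *ADARB1*, the gene of the related editing enzyme ADAR2, was named after its values were seen, and had 0.39 and 0.61. Of the 10 interferon ligands, 3 were in the table and 0 had enough counts to be tested. *IFNE*, the most counted of these, had 5, 9, 2 and 1 counts in U87MG control, U87MG shFLI1, U251MG control and U251MG shFLI1 cells, so a change in interferon RNA was not detectable at this depth.

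**Figure D5:**
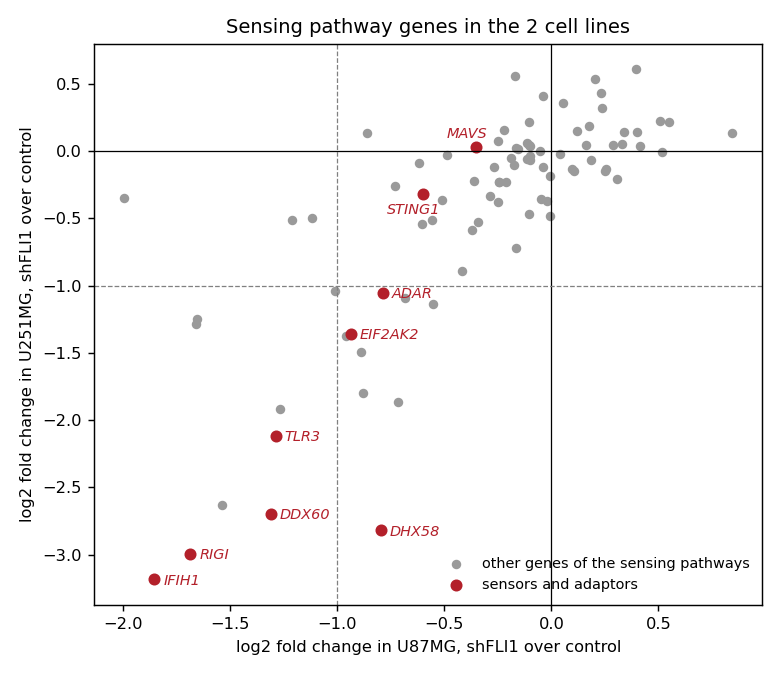
Log2 fold change of shFLI1 over control in U251MG against that in U87MG, for the 9 sensors and adaptors tested (red) and the other tested genes of the sensing pathways (grey), with dashed lines at the 2-fold limit. *RIGI*, *IFIH1*, *DDX60* and *TLR3* lay beyond the limit in both cell lines, *MAVS* and *STING1* lay within it in both, and no gene lay beyond 2-fold higher in either.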

How the data were processed

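Libraries of poly-T selected mRNA were sequenced by the authors, who aligned the reads to GRCh38 (p13 per the labels) with HISAT2 and took FPKM from StringTie. The table deposited by the authors gives an estimated count and an FPKM for each of 216388 RNAs. The tool behind the counts is not given in the sources used here, and 10 further value columns (TPM, and averages over the lines) were not used, nor were circular RNAs.

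Counts of 185042 linear RNAs were summed by gene identifier and rounded to whole numbers. Totals were 12229780 (U87MG control), 21250153 (U87MG shFLI1), 18108612 (U251MG control) and 28891055 (U251MG shFLI1). Log2 CPM used a prior count of 2 and TMM factors. A gene was tested in a cell line when it reached 10 counts in either library of that line. It was called at more than 2-fold with an exact two-sided binomial test of the reads below 0.05. Intervals are 95% Clopper-Pearson bounds on the share of reads, and the interval of a difference between cell lines is a normal one from the 4 counts. Intervals and the floor of 3 counts cover counting error only, since PCR reads are not independent molecules.

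The shared effect was tested with edgeR 4.0.16 (glmQLFit, glmQLFTest, filterByExpr, R 4.3.3) with Benjamini-Hochberg adjustment over 16649 genes, and with DESeq2 1.42.0 as an alternative. The p-values measure only the spread between these 4 libraries. Scripts were tested on simulated counts. The members and lists were chosen with earlier results of these data known. Named genes were all members, *FLI1* and cell type markers. Listed genes were named if called in both cell lines or, failing that, as the most counted of their list. Any other gene is marked in the text as chosen after its values were seen. RNAs with at least 10% of a gene's counts were named for *RIGI*, *IFIH1* and *ADAR* only. Those of the other members are not described, and within *EIF2AK2* and *DDX60* they did not all move alike. Other settings tried were other scalings, prior counts, filters and thresholds, the FPKM, and the fit without the cell line term.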

Additional observations from a re-analysis of the deposited data

Results flagged for a closer look

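*MAVS* was singled out because its change differed between the 2 cell lines. Its log2 fold change was -0.35 in U87MG and 0.03 in U251MG, the latter with a counting interval that included 0. Such a difference was not particular to *MAVS*, since its counting interval excluded 0 for all 9 genes tested. In size it was smallest for *ADAR* (-0.27) and largest for *DHX58* (-2.02), with 0.39 for *MAVS*. With 1 library per arm, the difference was not tested over replicates.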

How the results depend on the processing

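The number of sensors and adaptors called in U87MG was 4. It became 2 with the deposited FPKM on the log2(value + 1) scale, 8 with a 1.5-fold limit and 0 with a 4-fold limit. In the same order of settings, 2050, 684, 3627 and 651 of all 17355 genes tested were called in either direction. The median log2 fold change in U87MG became -0.78 with scaling to total counts, which moved the median of all genes from 0.06 to 0.22, and -0.53 with the FPKM. The median in U251MG became -1.38 with the FPKM, a scale on which a pseudocount of 1 understates the change of low genes. The shared test passed 6 of the 9 genes, and also 6 with DESeq2 size factors, 7 with DESeq2 and 5 with scaling to total counts. With no filter it passed 7 of 10. It passed 0 without the cell line term, where 0 of all genes passed, and 3 with robust dispersions. With scaling to total counts, the list of other DNA sensors and clearance genes had 1 gene lower in both cell lines in place of 2. The order of levels by FPKM moved only for *STING1*, relative to *DDX60* and *RIGI*, when second copies of its rows were left out. Leaving them out appears to drop part of its reads. Robust dispersions and these last settings were chosen after seeing the data. No gene of the set that was called changed direction under the settings tried. No library could be left out, since each group has 1. The shared test pairs shFLI1 with control within each cell line, and the fit without the cell line term is its unpaired counterpart. Depth limited *CGAS*, *IRF7* and the interferon ligands, and 1 library per arm limited every comparison within a cell line.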
